A study of Mus musculus with 18 samples.

Results

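The 8 genes described here, Gatm, Gamt, Ckb, Ass1, Asl, Arg2, Oat and Prodh, encode enzymes that make or use arginine, creatine and ornithine, and they were taken by gene symbol from the 32675 genes of the expression table of mouse kidney. All 8 were found in the table and all 8 passed the filter on low counts. The study used male C57BL/6 mice, labelled as 6 weeks old, in 3 groups of 6, and measured polyadenylated RNA of the kidney by bulk sequencing. Ctrl mice were handled daily and met no aggressor. PBS mice went through chronic social defeat stress, in which a larger CD-1 male attacked the mouse for 10 min a day over 2 weeks, and received daily intraperitoneal phosphate-buffered saline. FLX mice went through the same defeat and received fluoxetine, a selective serotonin reuptake inhibitor, at 10 mg per kg a day in the same buffer. No undefeated mice received fluoxetine, and injections of the Ctrl mice are not described, so PBS versus Ctrl holds defeat and injection together.

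Arginine synthesis is a well-known task of the proximal tubule, the first segment of the nephron. Citrulline arriving from the gut is joined to aspartate by argininosuccinate synthase (Ass1), and argininosuccinate lyase (Asl) releases arginine. Part of the arginine is used in the tubule by glycine amidinotransferase (Gatm), which makes guanidinoacetate and ornithine in the first step of creatine synthesis, and guanidinoacetate methyltransferase (Gamt) completes creatine, mostly in the liver. Arginase 2 (Arg2), the mitochondrial arginase, splits arginine into urea and ornithine. Ornithine aminotransferase (Oat) carries ornithine towards glutamate and proline, proline dehydrogenase (Prodh) opens the breakdown of proline, and brain-type creatine kinase (Ckb) moves phosphate between creatine and ATP.

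The deposited table gives, for each mouse, a gene's read count and its FPKM, which is fragments scaled to transcript length and to the mapped total of the library. Totals ran from 48928823 to 79061296 counts a mouse, and FLX replicates 3 to 6 were the 4 shallowest, at 48928823 to 52073640. The study left out 1 PBS mouse for excessive expression of inflammatory genes without naming it. PBS replicate 6 was taken to be that mouse, since it had 22.1 FPKM of S100a8, 32.8 of S100a9 and 49.2 of Lcn2, against at most 7.65, 13.0 and 6.37 in the other 17 mice. Its summed proximal tubule markers (7 genes) stood at 1101 FPKM, against 1703 to 2154 in the others. Not every marker fell with the sum. Slc34a1, Slc27a2, Lrp2, Slc22a6 and Cubn were at their lowest of all mice. Slc5a2, at 149 FPKM, was above every Ctrl mouse, and Slc5a12, at 29.2, was inside the Ctrl range. PBS replicate 6 is kept out of the group means and tests below, which hold 17 mice, and its values are given beside them. Every kidney cell type tested was present by its markers. In whole tissue, fewer cells of a type and less RNA per cell cannot be told apart.

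In Ctrl kidneys the levels of the 8 genes, compared per length as FPKM, spanned a wide range. Ass1 was by far the most abundant, at 1126 ± 161 FPKM (SD, n = 6), and ranked 31 among the 28907 genes with a Ctrl mean above 0. Gatm followed at 144 ± 20.7 FPKM, then Oat at 57.0 ± 7.14 and Asl at 35.6 ± 4.01. Asl and Ckb, at 33.8 ± 7.07 FPKM, overlapped in their ranges, and so did Ckb and Prodh, at 24.3 ± 2.25. Gamt stood at 14.3 ± 2.77 FPKM. Arg2 was the lowest, at 2.85 ± 0.598 FPKM, and 71.5% of the genes above 0 lay below it.

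The promoters of Gatm and Oat, which both rose in PBS kidneys, and of Ass1, the most abundant of the genes, are shown as the 250 bases before the annotated start, 5′ to 3′ on the gene's own strand, from RefSeq on build GRCm38.p6. The windows lie at chr2:122611278-122611527 on the minus strand, chr7:132576399-132576648 on the minus strand and chr2:31470020-31470269 on the plus strand. For Gatm and Ass1 the RefSeq start lies a little inside the span that the expression table gives the gene. Capitals mark every match to the 6 motifs searched on both strands. The motif AGAACA is the core of the glucocorticoid receptor element, and CACGTG is the E-box read by several helix-loop-helix factors. The letters TATAAA form the core promoter element of that name, GGGCGG is known as the Sp1 box, CCAAT is bound by the factor NF-Y, and the palindrome TTGCGCAA is bound by factors of the C/EBP family.
Gatm promoter: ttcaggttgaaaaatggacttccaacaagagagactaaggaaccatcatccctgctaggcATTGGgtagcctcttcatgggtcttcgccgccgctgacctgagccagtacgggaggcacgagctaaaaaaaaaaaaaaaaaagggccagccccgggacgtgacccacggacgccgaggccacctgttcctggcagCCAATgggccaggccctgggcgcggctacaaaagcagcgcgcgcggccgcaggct
Oat promoter: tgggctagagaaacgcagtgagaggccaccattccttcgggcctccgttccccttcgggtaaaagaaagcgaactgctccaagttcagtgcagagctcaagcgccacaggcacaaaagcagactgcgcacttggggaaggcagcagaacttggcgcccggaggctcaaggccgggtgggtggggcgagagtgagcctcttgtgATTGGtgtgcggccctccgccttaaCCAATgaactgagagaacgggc
Ass1 promoter: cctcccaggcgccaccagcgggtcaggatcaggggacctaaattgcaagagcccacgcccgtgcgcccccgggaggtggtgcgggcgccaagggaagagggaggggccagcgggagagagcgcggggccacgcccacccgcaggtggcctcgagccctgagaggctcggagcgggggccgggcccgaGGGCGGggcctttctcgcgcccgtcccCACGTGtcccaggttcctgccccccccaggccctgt

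The Gatm and Oat windows each held 2 matches to CCAAT, 1 of them as its reverse complement ATTGG, at positions -190 and -55 in Gatm and -47 and -22 in Oat. CCAAT or its complement was in 33.8% of the 32851 promoter windows of this length. The Ass1 window held GGGCGG at -63, a motif in 32.7% of windows, and CACGTG at -36, in 6.02% of windows. AGAACA was in 16.1% of windows and TATAAA in 12.4%, and neither was in these 3. TTGCGCAA was in 0.164% of windows. Of the other members, Gamt had GGGCGG 3 times, Ckb had TATAAA at -28 and CCAAT 2 times, and Prodh had no match. Arg2 and Asl had no entry among the promoters used.

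Gatm, the gene of the first creatine enzyme, rose in PBS kidneys. The gene is ENSMUSG00000027199, chr2:122594467-122611303 on the minus strand of GRCm38. The 5 PBS mice were at 259, 200.5, 286, 247 and 191 FPKM, and the 6 Ctrl mice at 123 to 179 with a median of 142. Every PBS mouse was above every Ctrl mouse. The fitted increase was 1.66-fold, a log2 fold change of 0.73 (standard error 0.16, 95% interval 0.39 to 1.06, adjusted p = 0.0148 by edgeR's quasi-likelihood test). PBS replicate 6 lay at 76.3 FPKM, below every other mouse in the study, and adding it brought the log2 value down to 0.55 and ended the call (adjusted p = 0.198).

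The 6 FLX mice had 109.8 to 238 FPKM of Gatm, with a median of 182, and 4 of them lay below all 5 PBS mice. FLX versus PBS gave a log2 fold change of -0.47 (95% interval -0.81 to -0.14), with an unadjusted p of 0.00783 in the edgeR fit and an adjusted p of 0.208. The FLX group, at 182 ± 44.6 FPKM (n = 6), was between the PBS mean of 237 ± 40.4 (n = 5) and the Ctrl mean, and overlapped both. FLX versus Ctrl was 0.25 (95% interval -0.06 to 0.57, adjusted p = 0.361). The FLX comparison and the defeat comparison share the same PBS mice, so a value that is high in those mice enters both with opposite sign.

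Gamt, the gene of the second creatine enzyme (ENSMUSG00000020150, chr10:80258151-80261012, minus strand), was not called in any comparison. The PBS mice had 13.8, 15.0, 11.0, 12.1 and 11.0 FPKM, all inside the Ctrl range of 9.23 to 16.8, and the FLX mice had 10.5 to 15.1 with a median of 12.3. On the log2 scale the difference was -0.18 in PBS versus Ctrl (95% interval -0.50 to 0.14, adjusted p = 0.585), -0.11 in FLX versus PBS (adjusted p = 0.873) and -0.29 in FLX versus Ctrl (adjusted p = 0.263). Without Ctrl replicate 3, the Ctrl mouse with the lowest Gamt, the last of these passed (adjusted p = 0.0249 in edgeR). Over all genes, leaving out that mouse raised the calls in FLX versus Ctrl from 744 to 3099. PBS replicate 6 had 6.13 FPKM, the lowest of the 18 mice.

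Ckb, the creatine kinase of the brain type, varied widely between mice of every group. Its gene is ENSMUSG00000001270, chr12:111669361-111672338 on the minus strand, and 2 processed copies, Ckb-ps1 and Ckb-ps2, could take some of its reads. PBS mice ranged from 22.5 to 54.3 FPKM, Ctrl mice from 25.5 to 44.8 and FLX mice from 27.3 to 55.9. The fold changes lay close to 0 in all 3 comparisons, at -0.01 (95% interval -0.46 to 0.45) for PBS versus Ctrl and 0.09 for both FLX comparisons, with adjusted p of 0.993, 0.933 and 0.863. PBS replicate 6 again had the lowest value, 11.6 FPKM.

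**Figure D1:**
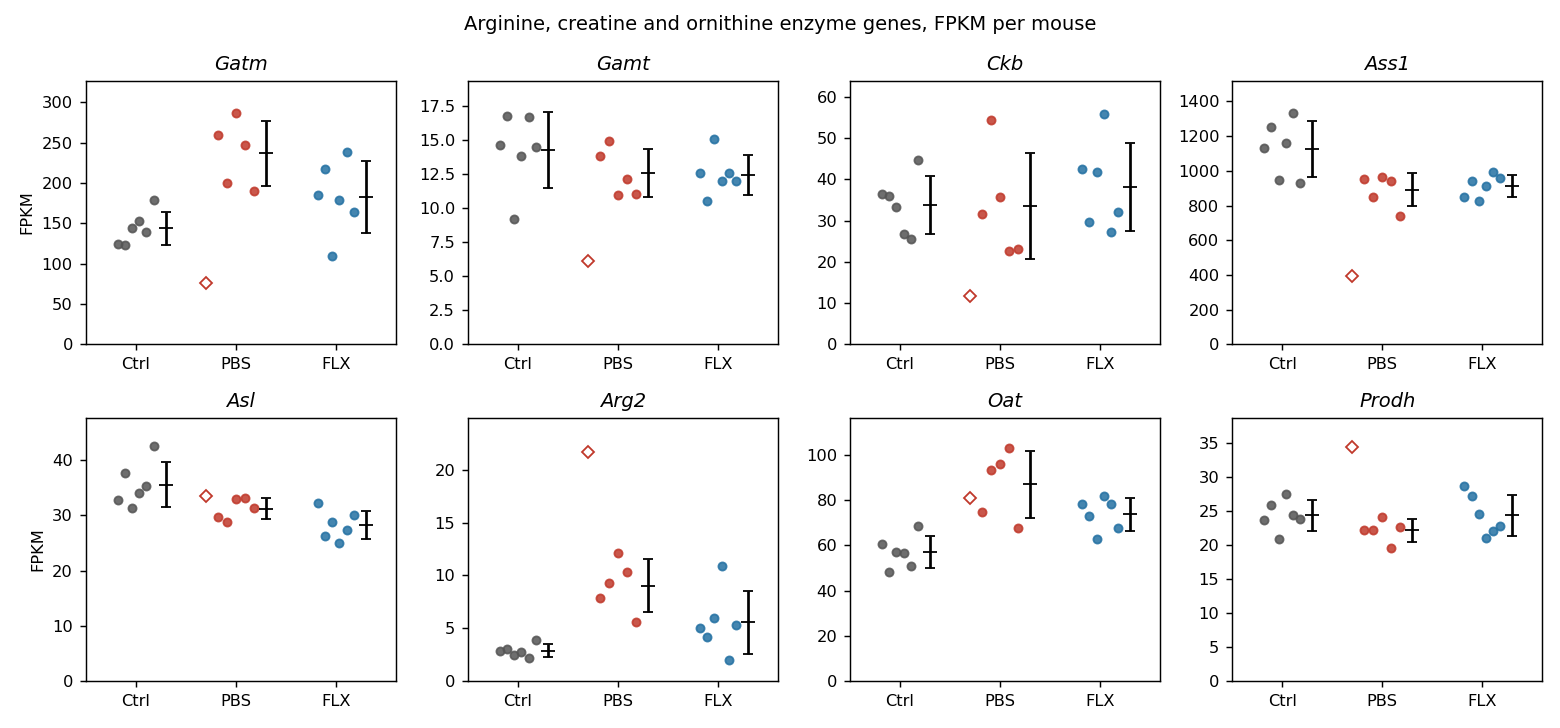
FPKM of the 8 enzyme genes in each mouse (vertical axes start at 0 and differ in scale), for Ctrl (grey), PBS (red) and FLX (blue), with the mean ± SD in black. The open diamond is PBS replicate 6, which is outside the mean. The 5 PBS points of Gatm and Arg2 lie above all Ctrl points, and those of Gamt, Prodh and Asl lie among or close to them.

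Ass1 (ENSMUSG00000076441, chr2:31470207-31520672, plus strand) was lower in both defeated groups by its means, and the difference passed the test in FLX versus Ctrl. The FLX mice had 827 to 991 FPKM with a median of 926, the Ctrl mice 929.8 to 1333 with a median of 1146, and 3 of 6 FLX mice lay below all Ctrl mice. The FLX versus Ctrl difference was -0.40 on the log2 scale (standard error 0.11, 95% interval -0.62 to -0.17, adjusted p = 0.0460 in edgeR). This call was close to the threshold. It was lost in 13 of the 17 fits that left out 1 mouse, with the adjusted p reaching 0.115 without Ctrl replicate 2, and held without Ctrl replicate 3, Ctrl replicate 6, PBS replicate 4 or PBS replicate 5. With all 6 PBS mice in the model the adjusted p was 0.244 at the same fold change. With FLX represented by its deeper replicates 1 and 2 alone, the adjusted p in edgeR was 0.530.

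The PBS mice had 953, 851, 965, 941 and 741 FPKM of Ass1, of which 851 and 741 were below every Ctrl mouse. PBS versus Ctrl was -0.34 (95% interval -0.57 to -0.10, adjusted p = 0.108 in edgeR), and became a call without Ctrl replicate 3 (adjusted p = 0.0291). Over all genes, leaving out that mouse raised the calls in this comparison from 772 to 1662. Between FLX and PBS the log2 fold change was -0.06 (95% interval -0.29 to 0.18, adjusted p = 0.911), and 0.04 by limma on FPKM. In PBS replicate 6 Ass1 was at 393 FPKM, the lowest of the 18 mice.

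Asl, which completes arginine synthesis (ENSMUSG00000025533, chr5:130011258-130025019, minus strand), fell in FLX kidneys against Ctrl. The FLX mice had 25.0 to 32.2 FPKM with a median of 28.0, the Ctrl mice 31.3 to 42.5 with a median of 34.7, and 5 of 6 FLX mice lay below all Ctrl mice. The log2 difference, FLX minus Ctrl, came to -0.42 (standard error 0.09, 95% interval -0.61 to -0.23, adjusted p = 0.0185 in edgeR), and the adjusted p was 0.0289 with all 6 PBS mice in the model. The call was narrowly lost without Ctrl replicate 2 (adjusted p = 0.0517) or without FLX replicate 5 (0.0512). With FLX represented by its deeper replicates 1 and 2 alone, it was also lost (adjusted p = 0.477 in edgeR).

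In PBS kidneys Asl was at 29.7, 28.9, 33.0, 33.1 and 31.4 FPKM, of which 29.7 and 28.9 were below every Ctrl mouse. On the log2 scale Asl differed by -0.19 in PBS versus Ctrl (adjusted p = 0.325) and -0.23 in FLX versus PBS (95% interval -0.43 to -0.03, adjusted p = 0.342). PBS replicate 6, at 33.5 FPKM, was close to the other PBS mice for this gene.

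Arg2, the mitochondrial arginase, had the largest increase of the 8 genes in PBS kidneys. Its gene is ENSMUSG00000021125, chr12:79130777-79156301 on the plus strand, where Gm48780 and Vti1b overlap it on the other strand. Whether the counting used strand is not stated. The PBS mice were at 7.90, 9.28, 12.1, 10.3 and 5.55 FPKM, all above the highest Ctrl mouse, and the Ctrl mice were at 2.14 to 3.91 with a median of 2.80.

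The increase of Arg2 was 3.18-fold, a log2 fold change of 1.67 (standard error 0.29, 95% interval 1.06 to 2.28, adjusted p = 0.00306 by edgeR's quasi-likelihood test). It held in each of the 17 fits without 1 mouse, with an adjusted p of 0.000487 to 0.0107. PBS replicate 6 had 21.7 FPKM, the highest of the 18 mice, and adding it took the log2 value up to 1.95 (adjusted p = 0.00256). For Arg2 that mouse lay beyond the other PBS mice in their direction from Ctrl, and for Gatm it lay on the opposite side of Ctrl.

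FLX mice ranged from 2.03 to 10.9 FPKM of Arg2, with a median of 5.13, so that 1 FLX mouse lay below all Ctrl mice and another inside the upper PBS range. The FLX versus PBS log2 fold change was -0.81 (95% interval -1.41 to -0.21), with an unadjusted p of 0.0106 and an adjusted p of 0.240, and 4 of 6 FLX mice were below all 5 PBS mice. FLX versus Ctrl was 0.86 (95% interval 0.28 to 1.44, adjusted p = 0.0897), with 5 of 6 FLX mice above all Ctrl mice. The latter passed without FLX replicate 5 (adjusted p = 0.0285), the mouse with the lowest Arg2.

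Oat, which takes up the ornithine made by arginase and by Gatm, rose in PBS kidneys with them. The gene, ENSMUSG00000030934 at chr7:132557478-132576398 on the minus strand, lies within the annotated span of Fgfr2 on the same strand. The PBS mice were at 75.0, 93.2, 96.0, 103 and 67.9 FPKM and the Ctrl mice at 48.4 to 68.5 with a median of 56.8. Of the 5 PBS mice, 4 were above every Ctrl mouse and PBS replicate 5 was just below the highest.

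The Oat increase was 1.54-fold, a log2 fold change of 0.62 (standard error 0.11, 95% interval 0.38 to 0.86, adjusted p = 0.00445 in edgeR). Leaving out any 1 mouse gave an adjusted p of 0.000982 to 0.0153, and including PBS replicate 6, at 81.1 FPKM, gave 0.00551. The FLX mice had 63.1 to 82.1 FPKM with a median of 75.6. FLX versus PBS was -0.34 (95% interval -0.57 to -0.10), with an unadjusted p of 0.00782 and an adjusted p of 0.208, and FLX versus Ctrl was 0.28 (95% interval 0.06 to 0.51, adjusted p = 0.146).

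Prodh, the proline-oxidising enzyme of mitochondria (ENSMUSG00000003526, chr16:18060357-18090203, minus strand, overlapped by Dgcr6 on the other strand), stayed within narrow bounds. The PBS mice had 22.2, 22.2, 24.1, 19.5 and 22.6 FPKM, the Ctrl mice 20.9 to 27.5 and the FLX mice 20.9 to 28.7. Among FLX mice, the deeper libraries of replicates 1 and 2 had 28.7 and 27.1 FPKM, and replicates 3 to 6 had 20.9 to 24.5. With only FLX replicates 1 and 2, the FLX versus PBS log2 fold change was 0.29. The PBS versus Ctrl log2 fold change was -0.14 (95% interval -0.35 to 0.08, adjusted p = 0.536), and the FLX comparisons gave 0.05 against PBS (adjusted p = 0.915) and -0.08 against Ctrl (adjusted p = 0.679). The exception was PBS replicate 6, whose 34.4 FPKM was the highest of the 18 mice.

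Counted together, 3 of the 8 genes were called higher in PBS versus Ctrl and 0 lower, in a comparison where 3.81% of the 20251 genes tested were called (2.14% higher and 1.67% lower). At an unadjusted p under 0.05 it was 4 of 8 against 17.9% of all genes, with Ass1 as the fourth. Both Gatm and Arg2 had groups that did not overlap, as had 3.52% of all genes. In FLX versus PBS, edgeR called 0 of the 8, against 0.726% of all genes (0.306% higher and 0.42% lower), and DESeq2 and limma also called 0. In that comparison 4 of the 8 had an unadjusted p under 0.05 (Gatm, Arg2, Oat and Asl), all with lower values in FLX, against 11.1% of all genes. In FLX versus Ctrl, 2 of the 8 were called lower (Asl and Ass1) and 0 higher, against 3.67% of all genes called (2.08% higher and 1.59% lower), and 4 of the 8 had an unadjusted p under 0.05, against 20.4%. Other tools differed there, since DESeq2 called Asl and Ass1 lower and Arg2 higher (adjusted p = 0.0215), and limma on FPKM called Asl lower and Oat higher (adjusted p = 0.0475 and 0.0487 with pseudocounts of 0.1 and 1) and not Ass1. No member had groups without overlap in either FLX comparison, where 2.92% of all genes had them against PBS and 3.4% against Ctrl. The median log2 fold change of the 8 was -0.07, -0.17 and 0.00 in the 3 comparisons, beside -0.01, 0.00 and -0.01 over all genes. The 8 genes were chosen with earlier results of these data known, so these counts beside the all-gene shares are a description and no test.

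**Figure D2:**
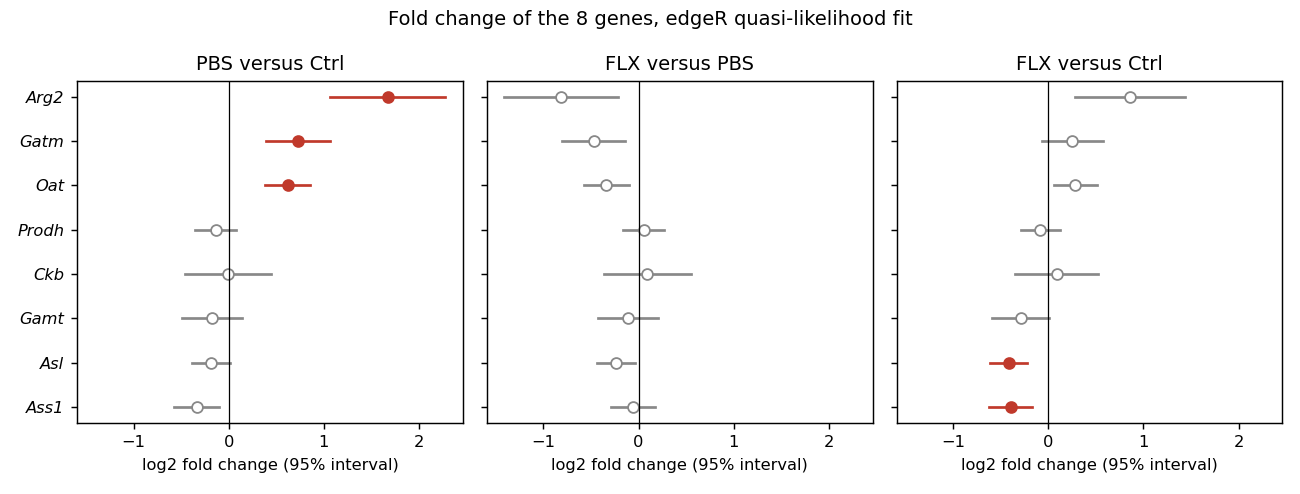
Log2 fold changes of the 8 genes with 95% intervals from the edgeR fit of 17 mice, for PBS versus Ctrl, FLX versus PBS and FLX versus Ctrl. Filled red points have an adjusted p under 0.05. Arg2, Gatm and Oat are filled on the right of 0 in the first panel, no gene is filled in the second, and Asl and Ass1 are filled on the left of 0 in the third.

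Ratios of FPKM within each kidney, which do not depend on the scaling between mice, set pairs of the enzyme genes beside each other. Of these pairs, only Gatm with Gamt and Ass1 with Asl are consecutive steps. These ratios were not tested. The Arg2 to Ass1 ratio was 0.00261 ± 0.000857 in Ctrl (n = 6), 0.0100 ± 0.00209 in PBS (n = 5) and 0.00616 ± 0.00333 in FLX (n = 6). The lowest PBS ratio, 0.00750, was above the highest Ctrl ratio, 0.00421. The FLX mice were at 0.00590, 0.00438, 0.00718, 0.0120, 0.00204 and 0.00549. They reached into both ranges, and most of them lay between the 2. PBS replicate 6 stood at 0.0552, with its high Arg2 and low Ass1.

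The Oat to Prodh ratio was 2.37 ± 0.413 in Ctrl, with a highest value of 2.89, and 3.97 ± 0.877 in PBS, with a lowest value of 3.01. FLX was between them at 3.08 ± 0.545. The Gatm to Gamt ratio, 10.5 ± 3.11 in Ctrl, 19.1 ± 4.62 in PBS and 15.0 ± 4.67 in FLX, overlapped between all groups. For both of these ratios PBS replicate 6 was inside the Ctrl range, at 2.36 and 12.4. The Ass1 to Asl ratio overlapped between the 3 groups, at 32.0 ± 5.49, 28.6 ± 3.09 and 32.6 ± 4.32, and was 11.7 in PBS replicate 6.

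**Figure D3:**
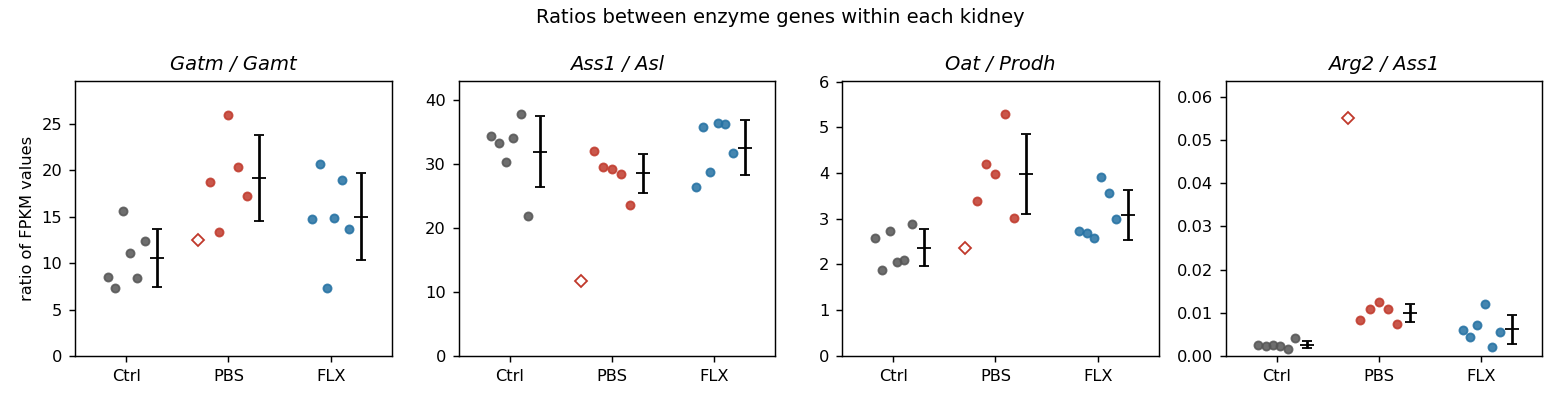
Ratio of FPKM values between pairs of the enzyme genes in each mouse (vertical axes start at 0 and differ in scale), with the mean ± SD of each group in black. The open diamond is PBS replicate 6, outside the mean. The 5 PBS points lie above all Ctrl points for Oat to Prodh and for Arg2 to Ass1.

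Markers of other cells also differed between groups or between mice. The neutrophil list (S100a8, S100a9, Retnlg and Cxcr2) summed to 6.17 to 25.1 FPKM in the 5 PBS mice, 1.05 to 3.06 in Ctrl, 0.0833 to 4.35 in FLX and 58.9 in PBS replicate 6. The podocyte list (3 genes) summed to 35.9 to 48.4 FPKM in Ctrl, 46.8 to 56.3 in PBS and 42.3 to 68.9 in FLX, and the endothelial list (3 genes) to 11.3 to 18.5, 9.88 to 23.7 and 15.2 to 25.2. The median of the endothelial list was 13.6 FPKM in Ctrl, 15.3 in PBS and 20.2 in FLX. Brown fat markers (3 genes) ran from 0.116 to 32.3 FPKM in Ctrl, from 3.17 to 413 in PBS and from 0.913 to 189 in FLX. The mouse with the most in PBS, replicate 5, had the lowest Gatm, Arg2, Oat and Ass1 of the 5 PBS mice, whereas the one with the most in FLX, also replicate 5, had the highest Gatm and Ass1 and the lowest Arg2 of the 6 FLX mice. The part of these cells in the enzyme results was not tested. The proximal tubule sum had about the same range in all groups, 1763 to 2154 FPKM in Ctrl, 1711 to 2026 in PBS and 1703 to 2083 in FLX. Slc34a1 and Slc27a2 made up most of that sum, and single markers could differ. Slc5a2 was at 103 to 127 FPKM in Ctrl, 124 to 156 in PBS and 80.2 to 151 in FLX. Slc22a6 was at 127 to 212, 135 to 154 and 142 to 176.

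Around the 8 enzymes, a list of 53 further genes in the table covered creatine uptake and kinases, the urea cycle, cationic amino acid transport, nitric oxide, proline, polyamines, methyl donors and glycine, and glutamate and glutamine. Of these, 50 passed the filter on low counts. The list, like the 8 enzymes, was chosen with earlier results of these data known. In PBS versus Ctrl, 3 of the 50 were called higher and 0 lower, beside 2.14% and 1.67% of all genes tested. The 3 were Glul and Got1, of 5 glutamate and glutamine genes tested, and Gldc, of 8 methyl donor and glycine genes. None of the 3 further creatine genes, 3 urea cycle genes, 7 transporters, 6 nitric oxide genes, 6 proline genes and 12 polyamine genes tested was called in that comparison. The median log2 fold change of the 50 was 0.05, beside -0.01 over all genes, and 29 of them were above 0.

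Glul, glutamine synthetase (ENSMUSG00000026473), uses the glutamate that Oat and its next step yield, and it had the strongest change of the list. The PBS mice were at 174, 179, 136, 204 and 213 FPKM, all above the Ctrl range of 70.5 to 92.1, a log2 difference of 1.17 (standard error 0.14, adjusted p = 0.000134 in edgeR). Glul and Shmt1 were the genes of the list called lower in FLX versus PBS. Glul fell to 118 ± 24.1 FPKM (n = 6), by 0.71 on the log2 scale (standard error 0.14, adjusted p = 0.0191, and 0.0270 with all 6 PBS mice). That fall was lost without FLX replicate 6 (adjusted p = 0.0532) or PBS replicate 4 (0.0749). All 6 FLX mice were still above every Ctrl mouse, by 0.46 on the log2 scale (adjusted p = 0.0566 in edgeR). PBS replicate 6 had 167 FPKM, within the range of the other PBS mice.

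Gldc, the glycine decarboxylase of the mitochondrial glycine cleavage system (ENSMUSG00000024827), draws on the glycine that Gatm uses. It went from 8.01 ± 1.51 FPKM in Ctrl to 16.0 ± 2.26 in PBS, with no overlap (log2 fold change 1.01, standard error 0.16, adjusted p = 0.00143), and to 14.4 ± 3.42 in FLX (0.75 against Ctrl, standard error 0.15, adjusted p = 0.0137). PBS replicate 6 had 84.2 FPKM of Gldc, far above the other 17 mice, and with it in the model the FLX versus Ctrl call was lost (adjusted p = 0.287). Got1, the cytosolic aspartate aminotransferase, which can supply aspartate for the Ass1 reaction, rose from 27.7 ± 1.47 to 40.7 ± 8.11 FPKM in PBS (log2 fold change 0.57, standard error 0.11, adjusted p = 0.00877). In FLX it was at 38.6 ± 3.56 FPKM, with all 6 mice above every Ctrl mouse. The edgeR log2 values of FLX were 0.39 against Ctrl (adjusted p = 0.0521) and -0.18 against PBS (adjusted p = 0.627).

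In FLX versus PBS, 0 of the 50 genes were called higher and 2 lower, Glul and Shmt1, beside 0.306% and 0.42% of all genes. Of the 50, 15 had a log2 fold change above 0, and their median was -0.12, beside -0.003 over all genes. For some genes the sign differed from that of mean FPKM, as for Slc3a1 (-0.01, with 233 FPKM in FLX and 220 in PBS). Shmt1, cytosolic serine hydroxymethyltransferase, which makes glycine from serine, was at 14.9 ± 0.636 FPKM in PBS and 12.1 ± 0.875 in FLX, beside 12.7 ± 1.07 in Ctrl. FLX minus PBS came to -0.40 in log2 units (standard error 0.07, adjusted p = 0.0116).

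In FLX versus Ctrl, 2 of the 50 were called higher and 2 lower, beside 2.08% and 1.59% of all genes. Besides Gldc, the higher gene was Amd1, S-adenosylmethionine decarboxylase of polyamine synthesis, at 14.6 ± 2.50 against 9.12 ± 0.376 FPKM (log2 fold change 0.60, standard error 0.10, adjusted p = 0.00565). The lower genes were Agmat, annotated as agmatinase, at 1.48 ± 0.279 against 2.66 ± 0.572 FPKM (-0.94, standard error 0.20, adjusted p = 0.0152), and Slc7a9, the light chain of the cystine and basic amino acid transporter of the tubule brush border, at 28.8 ± 2.03 against 37.3 ± 5.45 FPKM (-0.46, standard error 0.11, adjusted p = 0.0311). The Slc7a9 call was lost without any 1 of Ctrl replicates 2, 5 and 6 or FLX replicates 4, 5 and 6, with an adjusted p of 0.0519 to 0.0741, and in the fit with the replicate number as a block (0.0837).

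**Figure D4:**
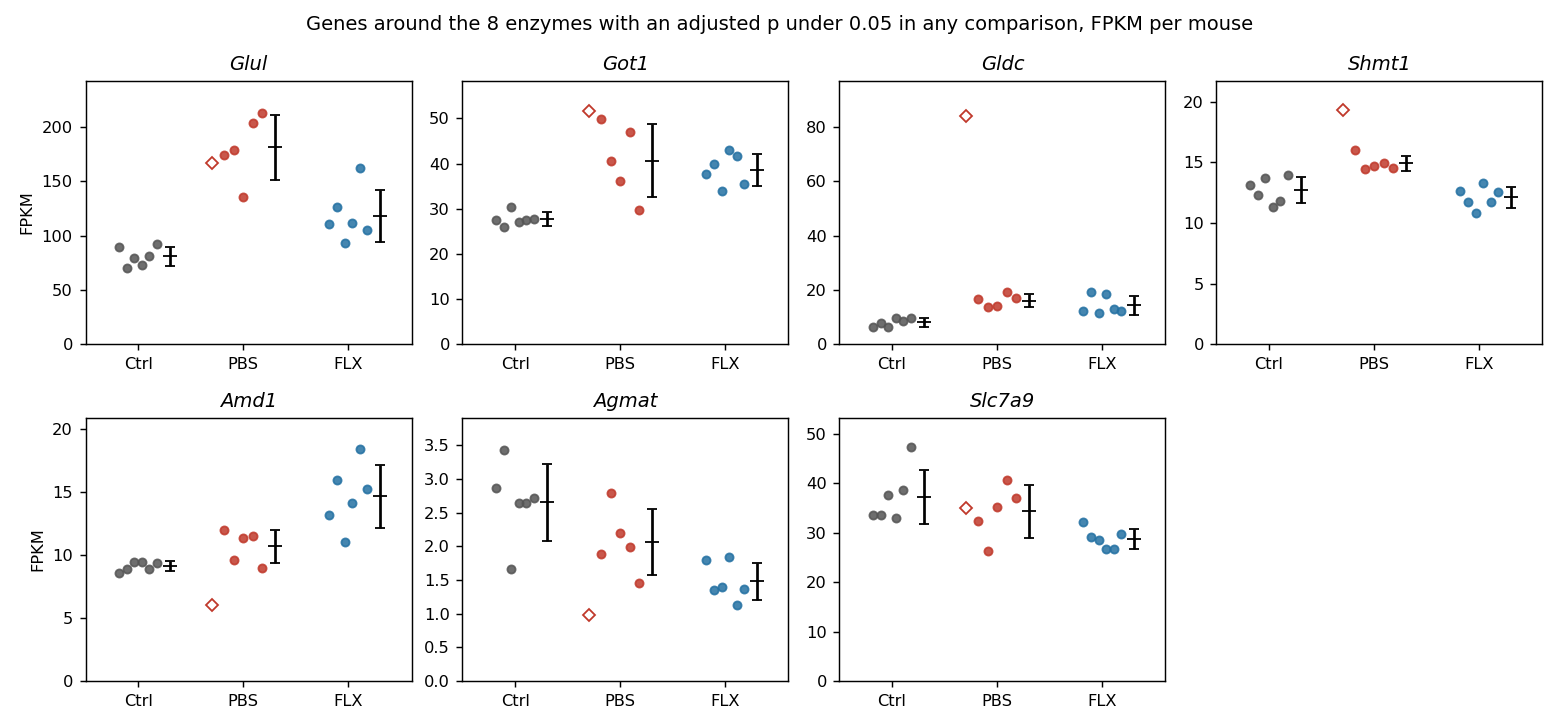
FPKM per mouse of the 7 further genes called in any comparison (vertical axes start at 0 and differ in scale), with the mean ± SD in black and PBS replicate 6 as an open diamond outside the mean. Glul and Gldc are higher in all 5 PBS mice than in any Ctrl mouse, and Amd1 is higher in all 6 FLX mice than in any Ctrl mouse.

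The gene whose pattern over the 18 mice was most like each enzyme was found by Pearson's r of log2(FPKM + 0.1) among the 20250 other genes tested. These values describe mice that share groups, libraries and depth. Asl was most like Slc7a9 (r = 0.827), and the value hardly moved without PBS replicate 6 (0.826). Gatm was most like Nsdhl, an enzyme of cholesterol synthesis (0.895, and 0.837 without that mouse), Oat like Pcolce, a procollagen processing enhancer (0.861 and 0.870), and Arg2 like Tm9sf2 (0.899 and 0.855). Gamt was most like Upb1, an enzyme of pyrimidine breakdown (0.941 and 0.880), Ass1 like Sertad3 (0.954 and 0.919), Prodh like Snx17, a sorting nexin (0.847 and 0.802), and Ckb like Ppp1r1b, a phosphatase inhibitor (0.942 and 0.893).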

How the data were processed

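Kidney RNA of 18 mice was sequenced from poly(A)-selected libraries that mark strand with dUTP. The deposited table holds, for each mouse, estimated counts per gene, here rounded to whole numbers, and FPKM values that the authors calculated with StringTie on GRCm38. The submitters' notes list cutadapt 1.9, HISAT2 2.0.4 and StringTie 1.3.4d, and the methods of the study name fastp and HISAT-3N in their place. The counting tool and its use of strand are not given in the sources used here, so reads of overlapping genes cannot be told apart.

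Groups were taken from the sample labels. Counts of 17 mice were fitted in 1 model over the 3 groups with edgeR 4.0.16 (TMM scaling, filterByExpr, quasi-likelihood F test, two-sided) in R 4.3.3, and p-values were adjusted over 20251 genes by Benjamini-Hochberg, with a call under 0.05. Standard errors are the log2 fold change divided by the square root of F. Levels are FPKM, mean ± SD. Alternatives used DESeq2 1.42.0, limma 3.58.1 on log2(FPKM + 0.1) and log2(FPKM + 1), other scalings and other sets of mice. The scripts were tested on simulated data. All 8 enzymes were named in the text, together with the genes of the surrounding list that passed in any comparison and 1 most similar gene each. The members and lists were chosen with earlier results of these data known. Each library is labelled as a separate mouse. Intervals of single counts were not used, and the lowest count of any of the 8 genes was 170, for Arg2.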

Additional observations from a re-analysis of the deposited data

Results flagged for a closer look

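In 24 groups of 5 or 6 mice (the 8 genes in Ctrl, PBS and FLX), 0 had a mouse set apart from the rest by Dixon's criterion, which chance alone meets in about 1 in 20 groups. PBS replicate 6, which entered no group mean, lay above every Ctrl mouse for 3 of the 8 genes. It had 21.7 FPKM of Arg2 against at most 3.91 in Ctrl, 81.1 FPKM of Oat against at most 68.5, and 34.4 FPKM of Prodh against at most 27.5. The other 5 PBS mice were also above Ctrl for Arg2, and 4 of 5 were for Oat, but for Prodh their highest value was 24.1.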

How the results depend on the processing

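The increases of Arg2 and Oat in PBS versus Ctrl kept their call in all 17 fits that left out 1 mouse and in all 9 other alternatives (adjusted p of 5.37e-07 to 0.00652 for Arg2 and 1.99e-05 to 0.0215 for Oat). The Gatm increase kept it in the 17 fits (0.00452 to 0.0469) and lost it with all 6 PBS mice (0.198) and with the replicate block (0.0569). Same-numbered mice did not deviate together: over 16 pairs the correlation was -0.205 to 0.227, with 2 above 0.1, and the own number was highest in 6 of 32 checks. The numbers were therefore not taken to pair the mice. With the replicate block edgeR called 419, 67 and 258 genes in PBS versus Ctrl, FLX versus PBS and FLX versus Ctrl, in place of 772, 147 and 744, and in FLX versus Ctrl 0 of the 8 enzymes in place of 2 (Asl, 0.0623) and 3 genes of the whole list of enzymes and surrounding genes in place of 6 (Slc7a9, 0.0837).

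Genes called in PBS versus Ctrl were 1413 with DESeq2 and 496 with only the groups compared. In FLX versus PBS they were 498 with DESeq2, 88 with no filter on low counts, 255 and 242 with limma (pseudocounts of 0.1 and 1) and 95 with only the groups compared. In FLX versus Ctrl they were 1615 with DESeq2, 378 with no filter, 1214 and 1197 with limma and 354 with all 6 PBS mice. The split of higher and lower calls moved with upper-quartile scaling and with limma, which changes the input and the test as well, to 314 and 449 with upper-quartile scaling in PBS versus Ctrl (433 and 339 with TMM), to 192 and 63 with limma in FLX versus PBS (62 and 85), and to 340 and 412 with upper-quartile scaling and 979 and 235 with limma in FLX versus Ctrl (422 and 322). When FLX was represented by replicates 1 and 2 alone, both of higher depth, edgeR called 0 genes in FLX versus PBS and 4 in FLX versus Ctrl, and 0 of the 8 enzymes and 0 of the whole list in both. No other tool was run on that smaller set.

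Of the 8 enzymes, 1 was called in FLX versus Ctrl with RLE size factors, with no filter, with all 6 PBS mice and with only the groups compared. The whole list had 1 call in FLX versus PBS with only the groups compared, in place of 2 (Glul, adjusted p = 0.0557), and 11 in FLX versus Ctrl with DESeq2. The mean Prodh level in PBS went from 22.1 to 24.2 FPKM with all 6 PBS mice. Directions turned only for small changes: Ckb in PBS versus Ctrl (0.00104 with only the groups compared), Gamt in FLX versus PBS (0.025 with all 6 PBS mice), Ass1 in FLX versus PBS (0.040 with limma, 0.086 with all 6 PBS mice) and Prodh (-0.062 in FLX versus PBS with all 6 PBS mice, 0.16 in FLX versus Ctrl with only FLX replicates 1 and 2). The cause was not tested.

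Leaving out 1 mouse gave 388 (without PBS replicate 1) to 1662 (without Ctrl replicate 3) genes called in PBS versus Ctrl, 47 (without PBS replicate 4) to 250 (without Ctrl replicate 3) in FLX versus PBS and 271 (without Ctrl replicate 5) to 3099 (without Ctrl replicate 3) in FLX versus Ctrl. Of the 8 enzymes, 3 to 4, 0 to 0 and 0 (without Ctrl replicate 2) to 3 (without Ctrl replicate 3) were called, and of the whole list 6 to 12, 1 to 3 and 3 to 14. The log2 fold change of Ckb ran from -0.25 to 0.11, from -0.023 to 0.34 and from -0.020 to 0.18 in the 3 comparisons, and that of Prodh in FLX versus PBS from -0.0054 to 0.11. Of 640 fold changes of the 8 genes under the alternatives, 18 changed sign. The lower depth of 4 of the 6 FLX mice makes low FLX counts less precise than those of the other groups.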
